A study of Mus musculus with 4 samples.

Results

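Chromatin accessibility at the genes of the transcription factor AP-1 was examined by ATAC-seq, in which a transposase cuts accessible DNA, in the mouse macrophage line RAW264.7. The 10 genes Jun, Junb, Jund, Fos, Fosb, Fosl1, Fosl2, Batf, Batf3 and Jdp2 were taken by name from 21440 protein-coding genes. All cells were wild type and received 25 ug/mL DIL-oxLDL, oxidized low-density lipoprotein with a fluorescent dye, for 24 h. Controls (n = 2 libraries) were given DMSO as the solvent alone, whereas treated cells (n = 2 libraries) were given 40 ug/mL of esculetin, a plant coumarin. Whether the libraries of a group came from separate cultures was not given in the sources used here, so the spread between them may be technical.

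AP-1 is a dimeric transcription factor whose subunits share a basic leucine zipper. JUN proteins can pair with each other or with FOS proteins, FOS proteins need a partner, and BATF, BATF3 and JDP2 pair with JUN proteins but lack their activation domains. In macrophages, Jun, Junb, Fos and Fosb are immediate early genes, switched on by kinase signalling without new protein synthesis, and AP-1 acts at inflammatory genes together with NF-κB.

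For each gene, peaks (regions with more transposase cuts than their surroundings) were read from 20 kb before its 5′ end, used as its transcription start site (TSS), to 10 kb past its 3′ end. A promoter peak had its summit within 1 kb of the TSS. Each peak is described by its percentile, the rank of its −log10 p within its own list in percent, and by its summit coverage as a multiple of the genome-wide background coverage of its library. The 2 control lists held 19595 and 27833 peaks and the 2 esculetin lists 8677 and 12792 (replicate 1 first, here and in every pair of values), so a percentile refers to lists of unequal length. The genome-wide background coverage, a measure of depth, was 6.51 and 4.08 in the controls and 4.97 and 4.10 after esculetin. In each library, 95% of peaks had a summit coverage above 3.38 and 4.41 times background in the controls and above 3.82 and 3.90 times background after esculetin, and weaker signal would mostly be missed. Of 10 macrophage marker genes, a promoter peak was called in 4 and 6 in the controls and in 1 and 2 after esculetin. Over all coding genes the shares were 37.3% and 38.8% in the controls and 27.9% and 34.9% after esculetin. Csf1r, Adgre1, Itgam and Mertk had none in any library, as was the case for 56.4% of coding genes. Somewhere in the same window, 8 and 10 markers in the controls and 5 and 7 after esculetin had a peak. No promoter peak was called at 10 kidney epithelial and 6 other cell type markers, of which 1 to 4 and 1 to 3 per library had a peak in the window. The share of all coding genes with a peak in such a window is not given here. In bulk chromatin, fewer cells with an open region and a less open region in each cell cannot be told apart.

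Promoter peaks were called at more AP-1 genes after esculetin than in the controls. The controls had them at 5 and 3 of the 10 genes, and the esculetin libraries at 7 and 6. Across all coding genes the order was the opposite, with promoter peaks at 37.3% and 38.8% of genes in the controls and at 27.9% and 34.9% after esculetin. Jun, Fos and Fosl2 had a promoter peak in all 4 libraries, as did 24.8% of coding genes. Fosb and Jdp2 had one in both esculetin libraries and in neither control, a pattern that 0.41% of coding genes showed. The reverse pattern, both controls and neither esculetin library, was found at none of the 10 genes and at 3.34% of coding genes. Jund, Batf and Batf3 had no promoter peak in any library, as was the case for 56.4% of coding genes. The mean number of genes with a promoter peak was 4 in the controls and 6.5 after esculetin, a difference of 2.5. It was 1 with a window of 2 kb, 4 with the 8581 strongest peaks of each library, and 1.5 without control replicate 2. Shares of all coding genes in these settings are not given here. Among those strongest peaks, joined where they overlap, 7.45% of all regions were called in both esculetin libraries only and 3.49% in both controls only.

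**Figure D1:**
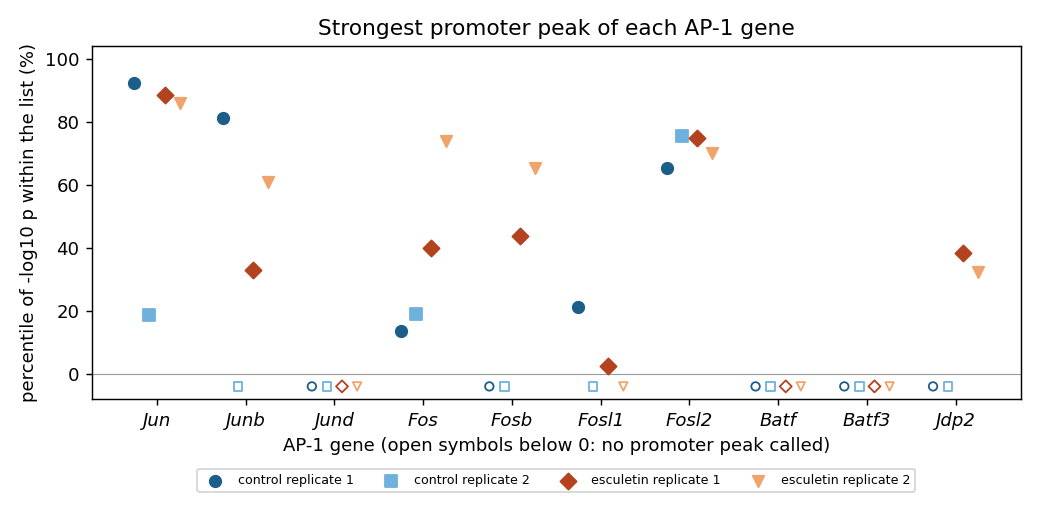
Percentile of the strongest promoter peak of each AP-1 gene within its list (y axis, %), for control replicates 1 and 2 (circles, squares) and esculetin replicates 1 and 2 (diamonds, triangles). Open symbols under 0 mark libraries with no promoter peak. Fosb and Jdp2 have filled symbols for both esculetin libraries only.

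Jun encodes the founding JUN subunit, and its promoter was accessible in every library (chr4:95051991-95052955, mm10, minus strand). The letters before its TSS are shown with those of Junb, Fos and Fosb, because promoter peaks over these windows were called in all libraries or in the esculetin libraries only. The sequences are from RefSeq (GRCm38.p6) and lie before the 5′ end of each gene, for Jun at chr4:95052223-95052472 (minus strand), for Junb at chr8:84978749-84978998 (minus strand), for Fos at chr12:85473640-85473889 (plus strand) and for Fosb at chr7:19310119-19310295 (minus strand). Capitals mark the core of the NF-Y box, the GC box, the TATA box or a variant AP-1 site on either strand, each spelled out with the search for it.
Jun: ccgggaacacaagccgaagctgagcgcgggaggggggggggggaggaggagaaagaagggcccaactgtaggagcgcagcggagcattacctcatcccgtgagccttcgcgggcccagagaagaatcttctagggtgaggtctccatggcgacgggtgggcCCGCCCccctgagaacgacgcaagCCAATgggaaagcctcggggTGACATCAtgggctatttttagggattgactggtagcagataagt
Junb: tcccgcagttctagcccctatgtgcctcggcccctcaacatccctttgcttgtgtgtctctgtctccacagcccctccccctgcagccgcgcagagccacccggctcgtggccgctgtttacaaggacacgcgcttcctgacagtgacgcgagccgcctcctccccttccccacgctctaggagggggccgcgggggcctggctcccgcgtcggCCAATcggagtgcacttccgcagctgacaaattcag
Fos: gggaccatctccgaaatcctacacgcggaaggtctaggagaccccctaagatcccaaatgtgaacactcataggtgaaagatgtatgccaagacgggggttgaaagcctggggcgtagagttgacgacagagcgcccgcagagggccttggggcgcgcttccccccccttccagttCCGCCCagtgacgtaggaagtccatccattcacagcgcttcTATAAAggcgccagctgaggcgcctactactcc
Fosb: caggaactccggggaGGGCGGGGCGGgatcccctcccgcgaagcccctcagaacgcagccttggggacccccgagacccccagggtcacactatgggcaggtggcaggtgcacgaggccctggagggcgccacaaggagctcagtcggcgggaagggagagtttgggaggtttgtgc

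Both strands of the 250 bases before each RefSeq start were searched for motif letters in the 9 genes with an entry, while Fosl1 had none. CCAAT, the core of the NF-Y box, was found at Jun and Junb, and in 33.9% of 32851 mouse promoters. GGGCGG, the GC box, was found at Jun, Fos, Fosb, Fosl2, Batf, Batf3 and Jdp2, and in 32.7% of promoters. Fos had TATAAA, the TATA box, from base -33 to -28, as 12.4% of promoters had it somewhere. TGAGTCA, the site bound by AP-1 itself, was in none of the 9 genes and in 4.46% of promoters, and TGACGTCA, the cyclic AMP response element, in none and in 1.55%. Jun had TGACATCA, a related AP-1 site whose search was added after the letters were seen, at bases -45 to -38 (2.93% of promoters). These letters overlapped no other motif at Jun.

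The Jun promoter peak had its summit at -29 and -62 bp from the TSS in the controls (negative values lie before it) and at -31 and -44 bp after esculetin. Its percentile was 92.4 and 18.5 in the controls and 88.3 and 85.9 after esculetin. Control replicate 2 was thus far below the other libraries, and the groups overlapped (exact permutation p = 1.0). The smallest p this test can give with 2 libraries per group is 0.33. By summit coverage the order was different, with 11.1 and 14.2 times background in the controls and 12.3 and 13.9 after esculetin. The low percentile of control replicate 2 stood beside a local background of 6.06 times the genome-wide one, against 2.23, 1.91 and 2.09 times in the other libraries.

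A second Jun region lay inside the gene (chr4:95050144-95051401) and was called in both controls only. In control replicate 2 its summit lay 1139 bp past the TSS, with a coverage of 43.6 times background and a percentile of 98.6. In control replicate 1 the summit was at 1700 bp, with a coverage of 5.99 times background and a percentile of 13.6. Neither esculetin library had a summit inside Jun. Esculetin replicate 2 had a further peak at -1073 bp (percentile 43.3), just outside the promoter window and inside Junos, a long noncoding RNA gene.

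Junb encodes a JUN subunit that often restrains JUN, and its called peaks near the TSS differed in place between the groups. Both esculetin libraries had a peak at the TSS (chr8:84978424-84978996), with summits at 32 and -77 bp and percentiles of 33.1 and 60.9. Their summit coverage was 8.05 and 12.7 times background. In the controls no peak covered the TSS. The control peaks lay inside the gene (chr8:84977049-84978421), with summits 875 bp and 1049 bp after the TSS, percentiles of 81.1 and 39.9, and coverages of 11.1 and 10.3 times background. The summit in control replicate 1 counts as a promoter peak under the 1 kb rule, and that in control replicate 2 lies just outside it. The esculetin and control regions lay next to each other without overlap. The local background of these peaks was 2.99 and 2.95 times the genome-wide one in the controls and 2.48 and 3.25 after esculetin. A site without a call was not shown to be closed, since weaker signal would mostly be missed.

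Upstream of Junb, 2 regions were called in control replicate 2 and both esculetin libraries, a pattern of 0.627% of all regions. At chr8:84985569-84986365, about 7 kb before the TSS, the percentile was 2.62 in that control, and 67.8 and 45.9 after esculetin. At chr8:84979828-84980258 it was 6.06 in the control, and 43.4 and 19.6 after esculetin. The esculetin percentiles were thus above the only control percentile at both sites. A region inside the neighbouring gene Hook2 (chr8:84990359-84990756) was missing from esculetin replicate 1 only, with percentiles of 58.1 and 68.3 in the controls and 86.0 in esculetin replicate 2.

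Jund, the most constitutively expressed JUN gene, had no peak summit within 1 kb of its TSS, but all 4 libraries had a peak that reached into this window with its summit just outside (chr8:70698297-70699533). Its summit lay 1145 and 1019 bp after the TSS in the controls and 1134 and 1057 bp after it in the esculetin libraries. The percentile was 75.3 and 35.2 in the controls and 94.6 and 94.7 after esculetin. Both esculetin values were above both control values, as was the coverage, at 8.30 and 9.32 times background against 16.5 and 19.8. The peak was 483 and 322 bp wide in the controls and 1002 and 978 bp wide after esculetin. Further into the gene, a region was called in both controls only (chr8:70699684-70700280), with percentiles of 19.3 and 74.4 and coverages of 5.69 and 12.7 times background. A distal region at chr8:70682219-70682596, about 15 kb before the TSS, was also called in both controls only (percentiles 61.2 and 37.9).

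**Figure D2:**
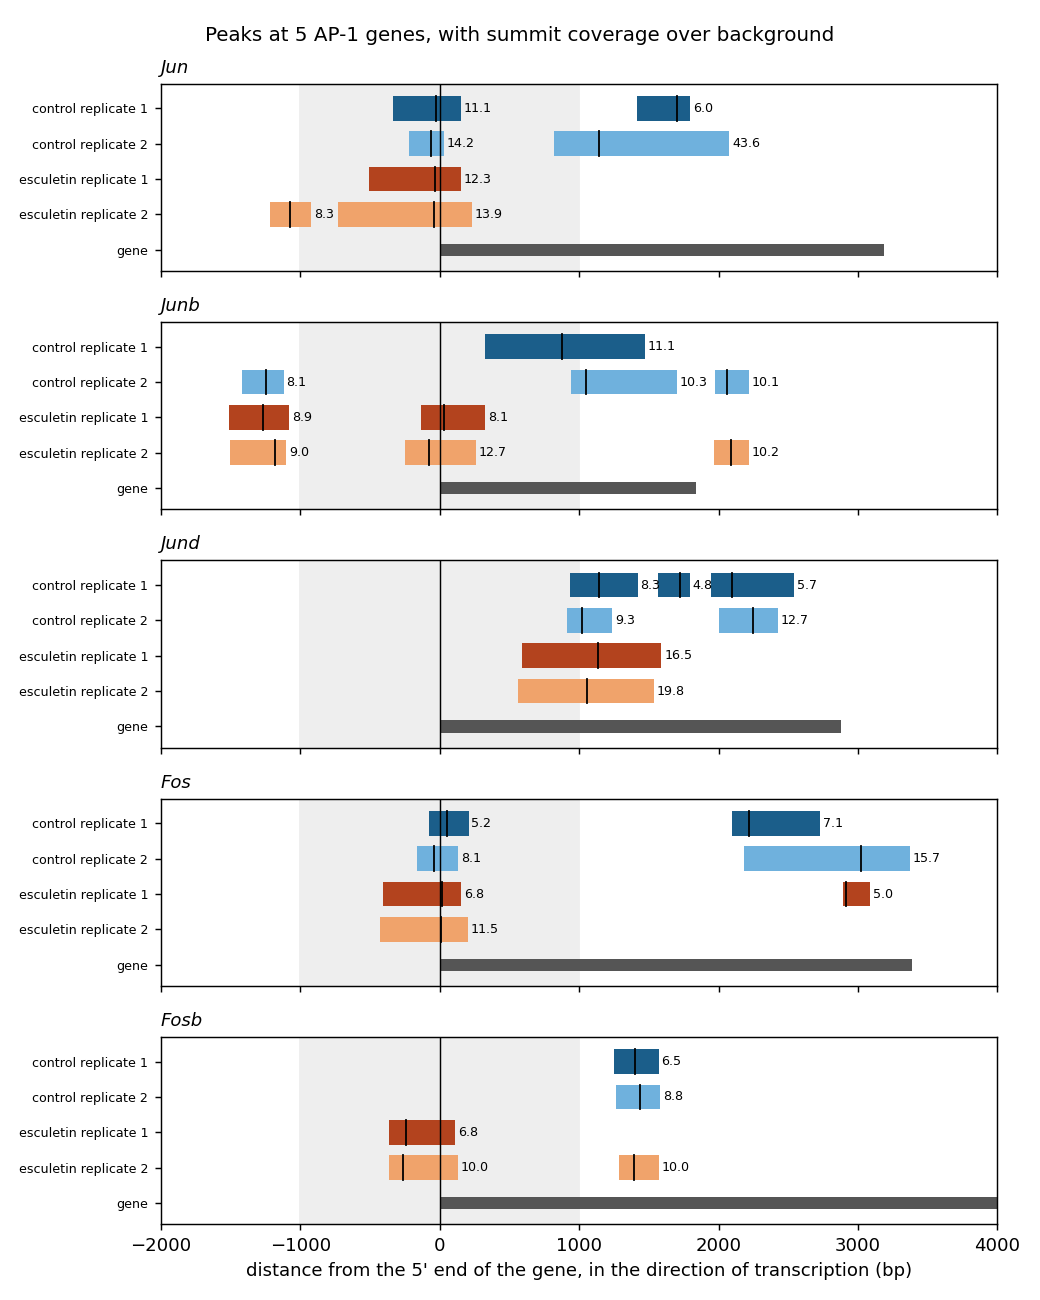
Peaks (bars) of the 4 libraries from 2 kb before to 4 kb after the 5′ end of 5 AP-1 genes (x axis, bp, in the direction of transcription). Black ticks are summits, the numbers are summit coverages in multiples of background, the grey band is the 1 kb promoter window, and the dark bar is the gene, which runs beyond the plot for Fosb. The 43.6 of control replicate 2 inside Jun is the highest value shown.

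Fos encodes the FOS subunit that pairs with JUN after stimulation, and it had the largest number of shared regions of the 10 genes, with 3 called in all 4 libraries. At the promoter (chr12:85473463-85474097) the percentile was 13.7 and 18.8 in the controls and 40.0 and 73.7 after esculetin. The groups did not overlap, with means of 16.3 ± 3.63 in the controls and 56.9 ± 23.8 after esculetin (± SD, n = 2), but the exact permutation test reached only its smallest p of 0.33. The difference of 40.6 percentage points was 15.0 when peaks were ranked by summit coverage, and 23.8 without esculetin replicate 2. The peak was 288 and 296 bp wide in the controls and 560 and 630 bp wide after esculetin. By summit coverage the groups overlapped, with 5.22 and 8.09 times background against 6.84 and 11.5. They did not overlap once each library was centred on its median over shared regions (-0.44 and -0.24 against -0.08 and 0.23 on the log2 scale). The local background was 1.87 and 2.49 against 1.68 and 2.01 times the genome-wide one.

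The 2 distal Fos regions called in all libraries also had higher percentiles after esculetin. Another distal region, at chr12:85468702-85468920 about 5 kb before the TSS, was called in control replicate 2 alone (percentile 22.6). At chr12:85454993-85455711, about 18.5 kb before the TSS and inside the long noncoding RNA gene Gm38543, the percentile was 55.1 and 71.8 in the controls and 85.6 and 94.3 after esculetin. The coverage there was 4.92 and 8.09 times background in the controls and 10.7 and 15.1 after esculetin. At chr12:85485861-85486337, about 12 kb past the TSS and beyond the 3′ end, the percentile was 53.4 and 43.8 in the controls and 73.4 and 76.0 after esculetin. Neither of the shared distal sites showed overlap between the groups. The 3′ part of the gene had the opposite order (chr12:85475989-85477264). The percentile there was 62.8 and 88.7 in the controls and 2.93 in esculetin replicate 1, and esculetin replicate 2 had no peak.

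Fosb, an immediate early gene like Fos, had a promoter peak in both esculetin libraries only (chr7:19309988-19310486). Its summits lay at -246 and -262 bp from the TSS, with percentiles of 43.8 and 65.2 and coverages of 6.84 and 10.0 times background. This peak covered all 177 bases shown above in both esculetin libraries and none in the controls. Inside the gene, a region at chr7:19308537-19308869, about 1.4 kb past the TSS, was called in the controls (percentiles 61.5 and 66.3) and in esculetin replicate 2 (63.2). About 10 kb before the TSS, a region at chr7:19319992-19320281 was called in all libraries, with percentiles of 38.9 and 28.0 in the controls and 27.6 and 43.0 after esculetin. The groups overlapped there. Past the 3′ end, a region inside the neighbouring gene Rtn2 was called in both controls only (percentiles 21.3 and 23.8).

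Fosl1 and Fosl2 encode FRA-1 and FRA-2, FOS relatives without its strong activation domain. Fosl2 had a promoter peak in every library (chr5:32134982-32136099), with summits between -814 and -633 bp from the TSS. Its percentile was 65.2 and 75.5 in the controls and 74.8 and 70.1 after esculetin, so the groups overlapped (exact permutation p = 1.0). Its coverage was 6.91 and 11.5 times background against 10.7 and 11.2. The Fosl2 window held no other region. At Fosl1, a weak promoter peak was called in control replicate 1 (percentile 21.3) and in esculetin replicate 1 (2.43), with coverages of 3.84 and 3.82 times background, near the 5th percentile of those lists (3.38 and 3.82). No other promoter peak was called at Fosl1. A region past its 3′ end, at the TSS of the neighbouring gene Ccdc85b, was missing from esculetin replicate 1 only.

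Batf, Batf3 and Jdp2 encode small basic leucine zipper proteins that pair with JUN. Jdp2 had a promoter peak in both esculetin libraries and neither control (chr12:85599198-85599476), with summits 612 and 728 bp after the TSS. These peaks were of moderate rank, with percentiles of 38.4 and 32.2 and coverages of 5.64 and 6.34 times background. Batf had no promoter peak, and its only region inside the gene (chr12:85705255-85705856, about 19 kb past the TSS) was called in the controls (percentiles 68.3 and 68.9) and in esculetin replicate 2 (60.8). Batf3, which is best known in dendritic cells, had only 2 weak distal regions, both in control replicate 2 alone (percentiles 14.1 and 18.9). No other peak was called in its window.

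Over all 10 windows, the peaks formed 37 regions, out of 36037 in the series, when peaks sharing at least 1 bp were joined. With DMSO alone the windows held 21 and 27 regions, and after esculetin 14 and 21. The whole lists were shorter after esculetin as well, with 19595 and 27833 peaks in the controls against 8677 and 12792. The order in the windows turned with the 8581 strongest peaks of each library, to means of 7.5 regions in the controls and 15.5 after esculetin. Of the 37, 7 were called in all 4 libraries (17.2% of all regions were) and 5 in both controls only (13.9% of all). Another 3 were called in both esculetin libraries only, against 0.832% of all regions. These 3 regions lay at the promoters of Junb, Fosb and Jdp2. With the 8581 strongest peaks of each library, 6 of 26 regions in the windows had the esculetin pattern, against 7.45% of all 16966 regions, and none was called in both controls only, against 3.49%. The balance between these patterns thus turned for regions in general as well.

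**Figure D3:**
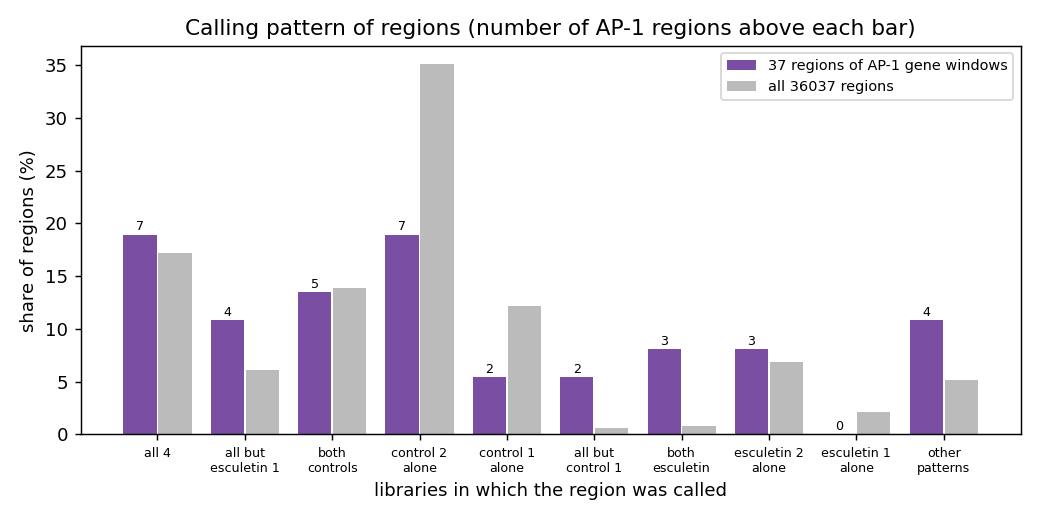
Share of regions (y axis, %) by the libraries in which they were called, for the 37 regions of AP-1 gene windows (purple, with their number above) and for all 36037 regions (grey). The 3 regions of both esculetin libraries stand against 0.832% of all regions, and control replicate 2 alone holds 7.

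The 7 regions called in every library were at Jun, Jund, Fos (3), Fosb and Fosl2. Their percentiles were higher after esculetin in the mean at all 7, with a median difference of 26.5 percentage points, whereas the median over all 6181 shared regions was -4.61 and 38.9% of those were above 0. Ranked by summit coverage, the median difference of the 7 was 17.5. The difference at the Jun promoter turned to -2.55 by summit coverage and to -5.27 without control replicate 2, and that at the Fosl2 promoter to -0.894 by the fold, to -2.99 without control replicate 1 and to -0.227 without esculetin replicate 1. At the distal Fosb region, the difference of 1.83 turned to -15.4 by the fold, to -3.60 without control replicate 2 and to -5.87 without esculetin replicate 2. In 4 of the 7 (Jund and the 3 of Fos) both esculetin percentiles were above both controls, against 14.5% of shared regions. None had both below, against 31.1%. For promoters of coding genes called in all 4 libraries, the same shares were 14.7% above and 29.5% below, and of the 3 AP-1 genes only Fos was above.

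Summit coverage was then compared with limma over all 6181 shared regions, with each library centred on its median. Before centring, the medians were 7.07 and 9.56 times background in the controls and 7.25 and 9.76 after esculetin. At a Benjamini-Hochberg adjusted p under 0.05, 135 regions (2.18%) were higher and 151 (2.44%) lower after esculetin. Among the AP-1 regions, 2 rose. The Jund region rose by 1.01 on the log2 scale (SE 0.23, limma adjusted p = 0.019) and the Fos region 18.5 kb upstream by 0.98 (SE 0.22, limma adjusted p = 0.021). The other 5 did not pass. Their limma estimates were 0.58 for the Fos region past the 3′ end (adjusted p = 0.13), 0.41 for the Fos promoter (0.28), 0.38 for the distal Fosb region (0.31), 0.26 for the Fosl2 promoter (0.52) and 0.03 for the Jun promoter (0.96).

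Both calls depended on the scaling and on single libraries. The limma adjusted p was 0.645 for Jund and 0.678 for Fos without centring, 0.095 for both after quantile normalization, and 0.144 and 0.488 with the deposited fold in place of the coverage. Without control replicate 2 neither passed (limma adjusted p = 0.227 and 0.073), and without control replicate 1 the Fos region did not (0.147). The direction was the same in every one of these fits, from 0.64 to 1.14 for Jund and from 0.34 to 1.12 for Fos on the log2 scale.

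**Figure D4:**
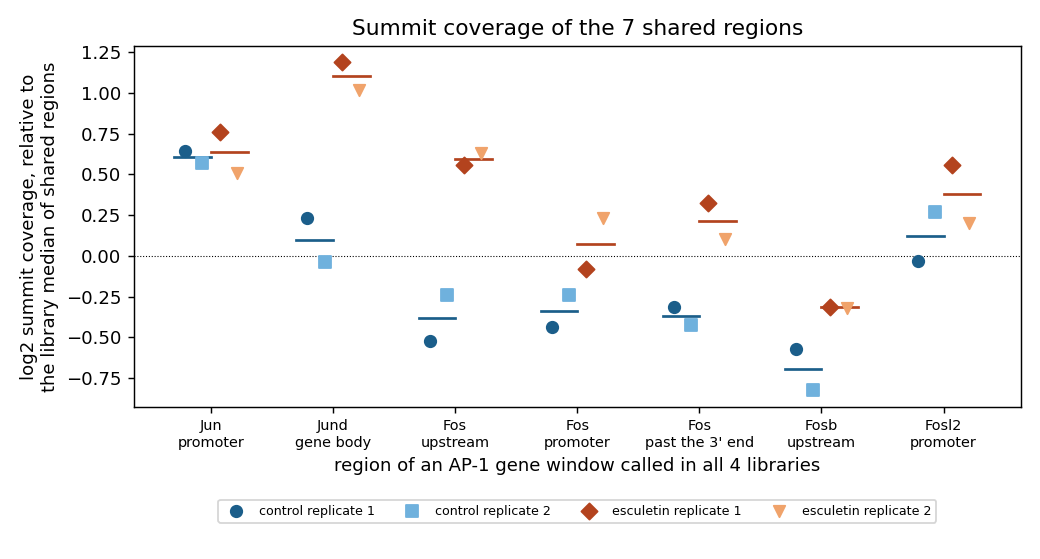
log2 summit coverage relative to the library median of shared regions (y axis) for the 7 AP-1 regions called in all 4 libraries, with points for libraries and lines for group means (n = 2). The esculetin points lie above the control points at Jund and at the 3 Fos regions, and at the distal Fosb region (where the fitted difference turned to -0.14 with the deposited fold), and overlap them at Jun and Fosl2.

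Peaks inside gene bodies were then compared, since Jun, Junb, Jund and Fos are short. A peak with its summit between 1 kb past the TSS and the 3′ end was called at 3 and 4 of these 4 genes in the controls, and at 2 and 1 after esculetin. Among 3337 coding genes of 1 to 5 kb, such peaks were called in 4.23% and 10.3% in the controls and in 1.59% and 2.19% after esculetin. Gene-body peaks were thus fewer after esculetin among short genes in general, with the highest share in control replicate 2. These shares are not scaled to list length, which was 19595 and 27833 peaks in the controls and 8677 and 12792 after esculetin. The part of gene-body peaks in the promoter values of these genes was not tested.

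The partners and regulators of AP-1 were examined by their promoter calls, to be read beside the shares of all coding genes (37.3% and 38.8% in the controls, 27.9% and 34.9% after esculetin, and 24.8% in all libraries). Of 13 related basic leucine zipper genes, 8 and 9 had a promoter peak in the controls and 9 and 9 after esculetin. In 7 it was called in all libraries, and in 3 of these (Atf2, Nfe2l2 and Ddit3) both esculetin percentiles were above both controls, against 2 (Atf3 and Atf7) where both were below. The shares over all coding promoters called in every library were the 14.7% above and 29.5% below given for the AP-1 genes. Of 24 kinases and other regulators upstream of AP-1, 20 and 22 had a promoter peak in the controls and 20 and 22 after esculetin, and 19 had it in all libraries. Both esculetin percentiles were above both controls at 7 of the 19 and below at 3, beside the same 14.7% and 29.5%. Among those above, named after their values were seen, were Dusp1, which encodes a phosphatase that inactivates the kinases of JUN (30.5 and 18 against 79.0 and 56.7), and Elk4, which encodes a ternary complex factor that acts on Fos (40.3 and 19.0 against 68.7 and 57.8). Elk1, which encodes a related factor, was among those below (46.5 and 41.6 against 26.3 and 25.9).

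Of 20 genes known to carry AP-1 sites, promoter peaks were called at 5 and 8 in the controls and at 2 and 3 after esculetin. Over all coding genes the share was also lower after esculetin (37.3% and 38.8% against 27.9% and 34.9%). None had one in all 4 libraries, and 12 had none in any library (56.4% of coding genes had none), including Il1b, Il6 and Tnf, which encode inflammatory cytokines. Spp1, which encodes osteopontin (percentiles 82.1 and 59.2), and Hmox1, which encodes heme oxygenase 1 (81.3 and 67.9), had a promoter peak in both controls only, as did 3.34% of coding genes. No gene of these 3 lists had one in both esculetin libraries only, a pattern of 0.41% of coding genes.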

How the data were processed

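ATAC-seq peak lists of 4 RAW264.7 libraries were used, 2 per group by the treatment in the labels. According to its methods, Trim-Galore and Bowtie2 (mm10) were used by the authors for trimming and alignment, Sambamba for taking out PCR duplicates and multi-mapping reads, and MACS2 for peaks, deposited per library. The MACS2 options, including any shift of read ends, are not given in the sources used here. The deposited lists give a fold (a linear ratio of the summit over its local background), −log10 p and −log10 q, an integer score made from the latter (not used), and the summit position. They hold no counts, so the count model of the study was not run.

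Summit coverage and local background were solved from the fold and −log10 p, since MACS2 computes the fold as coverage plus 1 over background plus 1, with a Poisson p. Solutions were found for 100% of peaks, and the procedure was tested on simulated data. The lowest solved background (1st percentile) was taken as the depth of a library. Gene positions were from RefSeq (GRCm38.p6, the chromosomes of mm10). Strand was from the RefSeq promoter table for 17492 coding genes and by symbol from GENCODE vM39 for 3948, Fosl1 among them, and genes without a strand were left out (21440 of 21900 used). Exon and UTR annotation of this build was not used. Regions were built on chromosomes 1 to 19, X and Y, and the strongest peak stood for a library in a region. Named were all 10 genes and, of the other regions, those called in all libraries or in both libraries of 1 group only. Other regions were named, and the motif TGACATCA added, after the data were seen.

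Single promoters were compared with two-sided exact permutation tests, and shared regions with limma 3.58.1 (R 4.3.3), Benjamini-Hochberg adjusted over all shared regions. Python 3.11.15, NumPy 2.4.6, SciPy 1.17.1, pandas 2.3.3 and matplotlib 3.10.9 were used. Alternatives changed the promoter window, the q threshold, the list length, the overlap, the percentile, the scaling, the block and the libraries. The genes and lists were chosen with earlier results of these data known.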

Additional observations from a re-analysis of the deposited data

How the results depend on the processing

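Chosen after seeing the data were 3 alternatives, namely any RefSeq start for the promoter and the percentile of the summit coverage for the shared regions and for single promoters. With a 2 kb window the difference in genes with a promoter peak was 1, and with equal numbers of top peaks 4, in place of 2.5. It ranged from 1.5 (without control replicate 2) to 3.5 (without control replicate 1). A cut to the 8581 strongest peaks of each library shortens the control lists most. After this cut, the difference in regions in the windows (-6.5, esculetin minus control) changed sign to 8, for reasons that were not tested. It was -2.5 with a window of 5 kb, and ranged from -10 (without esculetin replicate 2) and -9.5 (without control replicate 1) to -3.5 (without control replicate 2) and -3 (without esculetin replicate 1). Among those top peaks, regions of both controls only (5) were 0 and regions of both esculetin libraries only (3) were 6, while the shares over all regions went from 13.9% to 3.49% and from 0.832% to 7.45%. Leaving out 1 library gave 6 to 12 regions of controls only and 3 to 6 of esculetin libraries only. The former were 12 without control replicate 1 (beside 48.9% of all regions) and 9 without esculetin replicate 2 (beside 19.96%). The latter were 6 without esculetin replicate 1 (beside 7.72%) and 5 without control replicate 2 (beside 1.46%). In a group with 1 library left, that library alone decides whether the group has or lacks the call. The median percentile difference over shared AP-1 regions (26.5) was 35.8 among peaks of shared regions, 44.5 with equal numbers of top peaks (1 region left) and 17.5 by summit coverage. The median over all shared regions (-4.61) was -0.448, 11.2 and -5.34 in these settings. At the Jun promoter, the difference of 31.7 changed sign to -2.55 by summit coverage, and ranged from -5.27 (without control replicate 2) to 68.6 (without control replicate 1). At the Fosl2 promoter, the difference of 2.13 was -0.894 by the fold and 11.7 among peaks of shared regions, and ranged from -2.99 to 7.26 when 1 library was left out. At the distal Fosb region, the difference of 1.83 was -15.4 by the fold and ranged from -5.87 (without esculetin replicate 2) to 9.53 (without esculetin replicate 1). At the Fos promoter, the difference of 40.6 kept its direction but was 15.0 by summit coverage, and ranged from 23.8 (without esculetin replicate 2) to 57.4 (without esculetin replicate 1).

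The number of shared regions past the limma threshold (286) was 4 without centring, 0 after quantile normalization (1283 at an unadjusted p under 0.05), and 24 with the deposited fold. It ranged from 27 (without control replicate 2) through 119 (without control replicate 1) to 438 (without esculetin replicate 2). In these fits the lone library of a group is assumed to vary like the others. With the replicate block it was 395, and the AP-1 calls were those without the block. After centring, deviations from the group means were not correlated between libraries of the same replicate number (r = 0.0076). Centring takes out any shift of a whole library, so this says nothing of such shifts. The uncentred medians were 7.07 in the control and 7.25 in the esculetin library of replicate 1. For replicate 2 they were 9.56 and 9.76. The names of the peaks in the esculetin lists carry the replicate numbers 2 and 3, where the labels give 1 and 2, so the block and the pairing rest on numbers in doubt. The cause of these changes was not tested. Depth limits what can be said of missing calls.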

Other observations

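Among coding genes with a promoter peak in all 4 libraries, the 5 whose promoter percentiles were closest to the median of Jun, Fos and Fosl2 (65.2 and 18.8 in the controls, 74.8 and 73.7 after esculetin) were Drap1 and AI837181 (the same peaks, distance 6.90), Borcs6 (9.26), Dbp (10.6) and Wasf2 (11.1). The distance is Euclidean over the 4 libraries, in percentage points.

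Some regions of the windows overlapped pseudogenes. The strongest peak near Fosl1 (chr19:5435862-5436328) overlapped Gm25432, was called in control replicate 2 alone, and had a percentile of 97.1 and a coverage of 19.1 times background. A region past the 3′ end of Jdp2 overlapped Gm33312 and was called in control replicate 1 alone (percentile 31.6).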
